A study of Mus musculus with 221 samples.

Results

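Single early 2-cell mouse embryos differ in how much messenger RNA from the mitochondrial genome they hold, and embryos from both ends of that range are compared here. The embryos were chosen by their share of mitochondrial mRNA (mt-mRNA). For each embryo the counts of the 13 mt-mRNA genes were summed and divided by the total counts of all nuclear genes. Within each paternal diet, the 25% of embryos with the highest share (54 high embryos, 30 sired by males on a high-fat diet and 24 by males on a low-fat diet) were compared with the 25% with the lowest share (54 low embryos, again 30 and 24). The middle embryos, 62 and 51 of the 2 diets, were kept apart and used to look at the same genes in embryos that had no part in the comparison.

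All embryos came from oocytes of C57BL/6N-mtST females, whose nuclear genome is C57BL/6N and whose mitochondrial DNA is that of the Staudach line, fertilized in vitro with frozen and thawed sperm of C57BL/6N males. The males had been fed a high-fat diet (HFD; 30 high, 30 low and 62 middle embryos) or a low-fat diet (LFD; 24 high, 24 low and 51 middle embryos, 99 in all). Several males per diet and other males on each date were used, and the labels name neither male nor date for an embryo, so that embryos are not fully independent and the p-values measure the spread between embryos only. Each library was made from 1 whole embryo by Smart-seq2, which copies polyadenylated RNA and adds no reference RNA, so that more mitochondrial mRNA and less nuclear mRNA cannot be told apart.

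The mitochondrial genome encodes 13 proteins, all of them subunits of the respiratory chain and the ATP synthase, together with the ribosomal and transfer RNAs that translate them. All other subunits, and the whole machinery that copies and reads mitochondrial DNA, are encoded in the nucleus. In the early embryo mitochondria are inherited from the oocyte, and the stored maternal transcripts are degraded while transcription from the embryonic genome begins.

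The libraries held between 1937251 and 17246791 counts (median 5706066). The oocyte and 2-cell markers Zp3, Gdf9, Oosp1, Nlrp5, Ooep, Dppa3, Zscan4d and Zfp352 had counts in every high and low embryo, with Dppa3 at a median of 3350 counts per 1000000 nuclear counts (CPM) and Zp3 at 46.6. A few libraries stood apart from the others. The summed level of 20 macrophage markers was over 10 on the log2 CPM scale in 4 high and 2 low embryos, against a median of 7.25 in high and 7.12 in low embryos. HFD embryo 78 had a summed level of 11.1 log2 CPM in nuclear copies of mitochondrial genes, where the next high embryo had 7.34. High and low embryos were not spread evenly over the embryo numbers of the labels. Of the HFD embryos numbered 41 to 80, 16 of 38 were high and 4 low, and of those numbered 81 to 130, 4 of 48 were high and 19 low. Of the LFD embryos numbered 1 to 30, 13 of 29 were high and 2 low, and of those numbered 31 to 70, 2 of 39 were high and 13 low. These ranges were set after the values were seen.

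The mt-mRNA share chose the embryos, and its values are therefore given as a description with no test. In HFD embryos the share was 2.07% of nuclear counts at its lowest and 20.02% at its highest, with a median of 3.53% in the low and 6.86% in the high embryos. In LFD embryos it ran from 1.48% to 11.8%, with medians of 2.49% and 5.24%. The last low HFD embryo had 3.95% and its first neighbour outside had 3.98%, while the first high HFD embryo had 6.17% and its neighbour outside had 6.12%. For LFD embryos the same pairs were 3.09% and 3.23% on the low side and 4.80% and 4.77% on the high side. The groups were thus cut from a continuous range, and a high LFD embryo could have a lower share than a middle HFD embryo. Nuclear counts, which form the denominator, had a median of 5384623 in high and 5690708 in low embryos. By diet these medians were 4745771 in high and 5746685 in low HFD embryos, and 5509070 and 5621902 in LFD embryos.

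**Figure D1:**
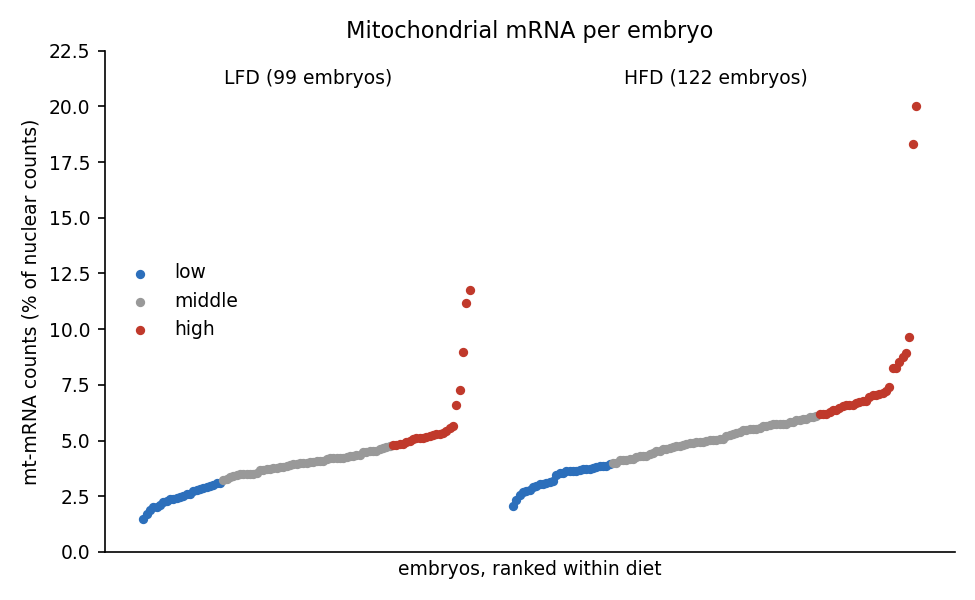
Each point is 1 embryo, ranked within its diet along the horizontal axis, with the mt-mRNA counts as a percent of nuclear counts on the vertical axis. The range is continuous at both cuts, and the highest HFD embryo stands at 20.02%.

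All 13 mt-mRNAs were higher in the high embryos, and they were not equally separated. Of the mt-mRNA counts of all embryos, mt-Cytb, which encodes cytochrome b of complex III, took 20.5%, mt-Co1, the catalytic subunit of cytochrome c oxidase, took 18.2%, and mt-Atp6, a membrane subunit of the ATP synthase, took 17.1%. mt-Co1 had 6313, 11701 and 21848 CPM as lowest, median and highest value in high embryos and 2235, 5012 and 9071 in low embryos. For mt-Co1, 49 of 54 high embryos lay above every low embryo. mt-Atp6 had 6309, 10698 and 46490 CPM in high and 2755, 5034 and 9287 in low embryos, and 35 high embryos lay above every low one. mt-Cytb, the most abundant of the 13, overlapped most. Its values were 6146, 11698 and 97251 CPM in high and 3416, 6080 and 15483 in low embryos, with 12 of 54 high embryos above every low one, or 26 when the highest low embryo was left aside. The value of 97251 CPM came from HFD embryo 42, and the next high embryo had 45088.

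The subunits of complex I, the entry point of electrons from NADH, formed the largest group. mt-Nd4 was the one gene of the 13 whose groups did not overlap: it had 2705, 3773 and 7359 CPM in high and 710, 1787 and 2664 in low embryos, so that 54 of 54 high embryos lay above all low ones. mt-Nd6, which lies on the opposite strand to the others, had the largest mean difference, 1.60 on the log2 scale, and mt-Cytb the smallest, 1.07. mt-Nd6 was at 188.96 CPM (median) in high and 77.3 in low embryos. The kit does not mark strand, so reads from mt-Nd6 and from the strand opposite to it cannot be told apart. The log2 difference of mt-Cytb was 1.28 in HFD and 0.80 in LFD embryos. That of mt-Nd3 was 0.87 in HFD and 1.498 in LFD embryos. In both diets the difference was thus positive, while its size by gene was not the same.

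**Figure D2:**
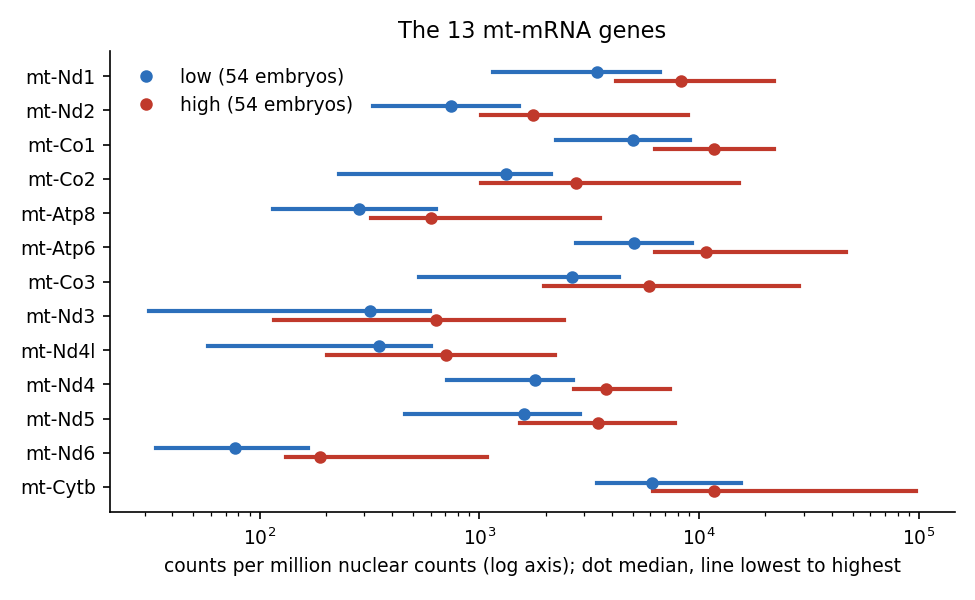
For each of the 13 mt-mRNA genes the dot marks the median and the line runs from the lowest to the highest embryo, in CPM on a log axis, for 54 low and 54 high embryos. The lines of mt-Nd4 do not overlap, and those of mt-Cytb overlap over most of the low range.

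Mitochondrial RNAs that the rule did not sum moved with the mRNAs and are described here without a test, since they are read from the same mitochondrial DNA. The 2 mitochondrial ribosomal RNAs together had 0.481%, 0.856% and 3.88% of nuclear counts in high embryos and 0.104%, 0.461% and 0.838% in low embryos. mt-Rnr2, the large ribosomal RNA, was at 7785 CPM (median) in high and 4120 in low embryos. The 22 tRNA genes together had a median of 716 CPM in high and 305 in low embryos. Most of this was mt-Ts1, a serine tRNA gene that overlaps the end of mt-Co1 on the other strand, at 577 CPM in high and 227.3 in low embryos. The kit does not mark strand, so counts of mt-Ts1 cannot be told apart from reads of mt-Co1 transcripts that run into it.

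Next, nuclear genes were tested between high and low embryos, with diet as a covariate. Of 16586 nuclear genes that passed the filter on low counts, 1206 were higher in high embryos and 1025 were lower at a false discovery rate (FDR) of 0.05 (edgeR), which is 7.27% and 6.18% of the genes tested. With limma-voom on the same embryos the split was 1000 higher and 1566 lower, and 1777 genes were called by both. Genes of the cytosolic ribosome made up the clearest group on the higher side and transcripts stored in the oocyte the clearest on the lower side, beside a set of single genes with larger changes.

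**Figure D3:**
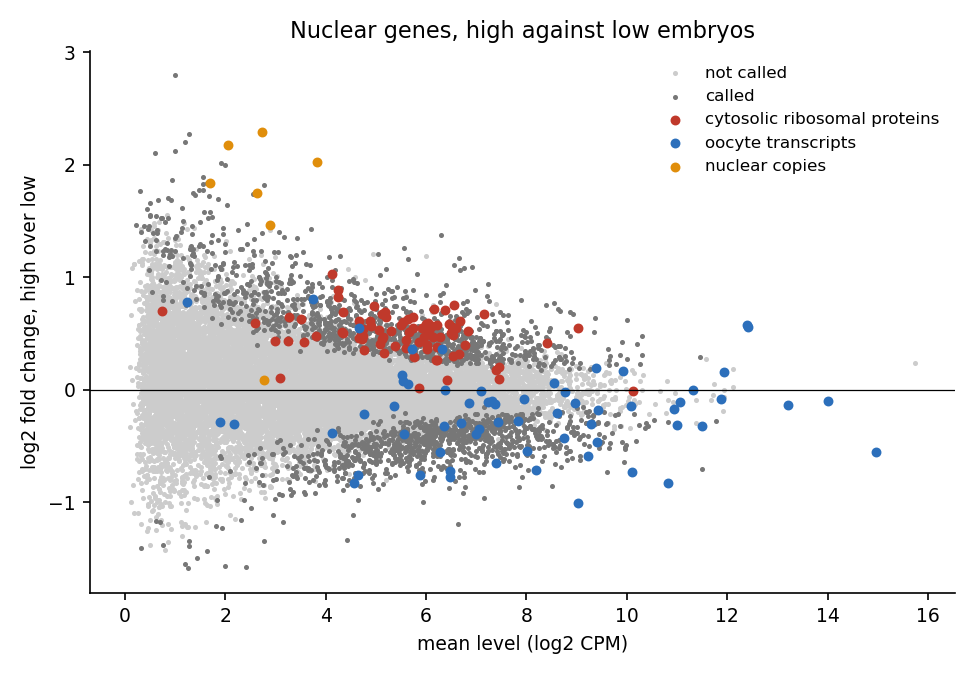
Each point is 1 of 16586 nuclear genes, with its mean level (log2 CPM) on the horizontal axis and its log2 fold change, high over low, on the vertical axis. Called genes are dark grey, most cytosolic ribosomal protein genes lie above 0, and most oocyte transcripts lie below it.

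Among genes of at least 3 log2 CPM that both tools called, nuclear copies of mitochondrial genes left aside, the largest increase was that of Spry2, an intracellular inhibitor of receptor tyrosine kinase signalling (chromosome 14, 105891947 to 105896819, GRCm38). Spry2 had 24.7, 94.3 and 495 CPM as lowest, median and highest value in high embryos and 3.26, 39.9 and 108.5 in low embryos. The groups overlapped, but 49 of 54 high embryos lay above the median of the low embryos, and the log2 fold change was 1.38 ± 0.18 (SE, edgeR adjusted p = 5.98e-08). It was 1.39 in HFD and 1.38 in LFD embryos. D16Ertd472e had a median of 31.8 CPM in high and 13.9 in low embryos, a log2 fold change of 1.21 ± 0.22 (edgeR adjusted p = 4.25e-05). Crip1, a small zinc-binding LIM protein, had medians of 10.3 and 4.32 CPM and a log2 fold change of 1.18 ± 0.31 (edgeR adjusted p = 0.00424). Krt18, a keratin of simple epithelia, was at 7.74 and 4.33 CPM, with a log2 fold change of 0.43 in HFD and 2.20 in LFD embryos. Irx2, Gm42929, Gm48729, Gm6054 and Gm16222 completed the list, with log2 fold changes between 1.18 and 1.23.

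Lgals3, which encodes the lectin galectin-3 and is also one of the macrophage markers, had 5.38, 28.4 and 969 CPM in high and 0, 15.4 and 405 in low embryos. Its log2 fold change was 1.26 ± 0.28 (edgeR adjusted p = 0.000707), and the slope was -0.31 per log2 unit of mt-mRNA share in the middle embryos. Of 14 macrophage markers tested, Lgals3, Cd68 and Spp1 were higher and none was lower, with a median log2 fold change of 0.87 over the list. Taken by diet, Cd68 had a log2 fold change of 2.02 in HFD and 0.50 in LFD embryos, and over the marker list the medians were 1.18 and -0.08. The summed macrophage level ran from 6.61 to 13.04 in high and from 6.27 to 12.8 log2 CPM in low embryos. The defining markers Tyrobp, C1qc and Adgre1 had a median of 0 in both groups, with counts in 6, 5 and 7 high and in 2, 2 and 3 low embryos. Without the 7 embryos high in macrophage markers or nuclear copies, 1 macrophage marker was called, and 1219 genes were higher and 880 lower.

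The 10 largest decreases included 1 gene of the list of oocyte transcripts, Nlrp14, and 1 of the list of maternal mRNA decay factors, Pabpc1l. Pabpc1l (ePAB), the poly(A)-binding protein of oocytes (chromosome 2, 164025450 to 164050538), had 0.992, 50.4 and 184.6 CPM in high and 29.7, 101.9 and 596 in low embryos. Of 54 high embryos 45 lay below the median of the low ones, and the log2 fold change was -1.19 ± 0.20 (edgeR adjusted p = 1.77e-05). Nlrp14, a NOD-like receptor gene expressed in oocytes (chromosome 7, 107166990 to 107198102), had 94.7, 303 and 1058 CPM in high and 234, 459 and 2596 in low embryos. Its log2 fold change was -1.01 ± 0.16 (edgeR adjusted p = 5.75e-06), and it was -0.996 in HFD and -1.01 in LFD embryos. Ppme1, the methylesterase of protein phosphatase 2A, had medians of 90.6 and 167.98 CPM and a log2 fold change of -0.96 ± 0.14 (edgeR adjusted p = 1.77e-06). For Ppme1 49 of 54 high embryos lay below the low median. Iqgap3, a scaffold protein of the IQGAP family, had medians of 39.9 and 75.3 CPM (log2 fold change -0.997 ± 0.18, edgeR adjusted p = 5.66e-05). Gm7942, Gm7957, Heatr5b, Cul4a, Meak7 and Popdc2 completed the list, with log2 fold changes from -1.33 for Gm7942 to -0.93 for Popdc2 and Meak7.

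Cytosolic ribosomal protein genes, which build the ribosomes that translate nuclear mRNA, had the highest share of called genes of any list but that of nuclear copies. Of 83 genes tested, 66 (79.5%) were higher and 0 were lower, with a median log2 fold change of 0.51, where all genes tested had a median of 0.03. Rpl37 had 48.5, 110.9 and 395 CPM in high and 14.7, 67.97 and 119.8 in low embryos, and its log2 fold change was 0.76 ± 0.12 (edgeR adjusted p = 2.29e-06). For Rpl15 these values were 50.9, 135.6 and 408 CPM against 41.6, 89.8 and 134.5, with a log2 fold change of 0.53 ± 0.09 (edgeR adjusted p = 6.74e-06). For both genes the groups overlapped, with 45 and 46 of 54 high embryos above the low median. The called members ranged from 0.26 for Rps16 to 1.03 for Rps20. Summed over the list, the ribosomal protein level had medians of 7288 CPM in high, 6525 in middle and 5568 in low embryos.

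Ribosomal protein genes have many near-identical processed copies in the genome, and reads that fit several places were not counted, so that single values are uncertain. The list was also made of shorter genes than most, and fold changes fell with gene length. Over the shortest 10% of genes by summed exon length the median log2 fold change was 0.18, and over the longest 10% it was -0.07. Between 1267 and 2665 bases, the quartiles of the ribosomal protein genes, 41 of them had a median of 0.49 and 3546 other genes a median of 0.12, of which 9.64% were higher. The part of gene length in the result was not tested further. With blocks of 10 embryo numbers as a covariate 33 of the 83 were called, and with the oocyte transcript level as a covariate 40, all of them higher, with medians of 0.47 and 0.36.

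Transcripts of ribosomal protein genes commonly begin with a C and a run of pyrimidines, by which their translation is controlled, and the stretch around the annotated start is shown for the 2 genes named above and for Rpl35, whose log2 fold change was 0.71. The RefSeq table (GRCm38.p6) held promoters for 62 of the 85 listed genes. Each sequence runs 15 bases to either side of the start, 5′ to 3′ on the strand of the gene, with the letters CTTTC in capitals. They lie at chr15:5116598-5116627 (plus strand), chr14:18270972-18271001 (minus strand) and chr2:39005117-39005146 (minus strand).
Rpl37: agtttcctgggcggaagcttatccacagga
Rpl15: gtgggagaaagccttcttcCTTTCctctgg
Rpl35: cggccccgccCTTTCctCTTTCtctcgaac
The letters CTTTC, read on the strand of the gene, were found in this window in 18 of the 62 ribosomal protein genes and in 4.76% of the 27025 genes with a promoter in the table. On either strand they were found in 19 of the 62 and in 8.83%. Rpl37, whose log2 fold change was above those of Rpl15 and Rpl35, had none in this window. Rpl35 was not picked by the rule for named genes. Its window held the letters 2 times, while most of the 62 genes held none.

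**Figure D4:**
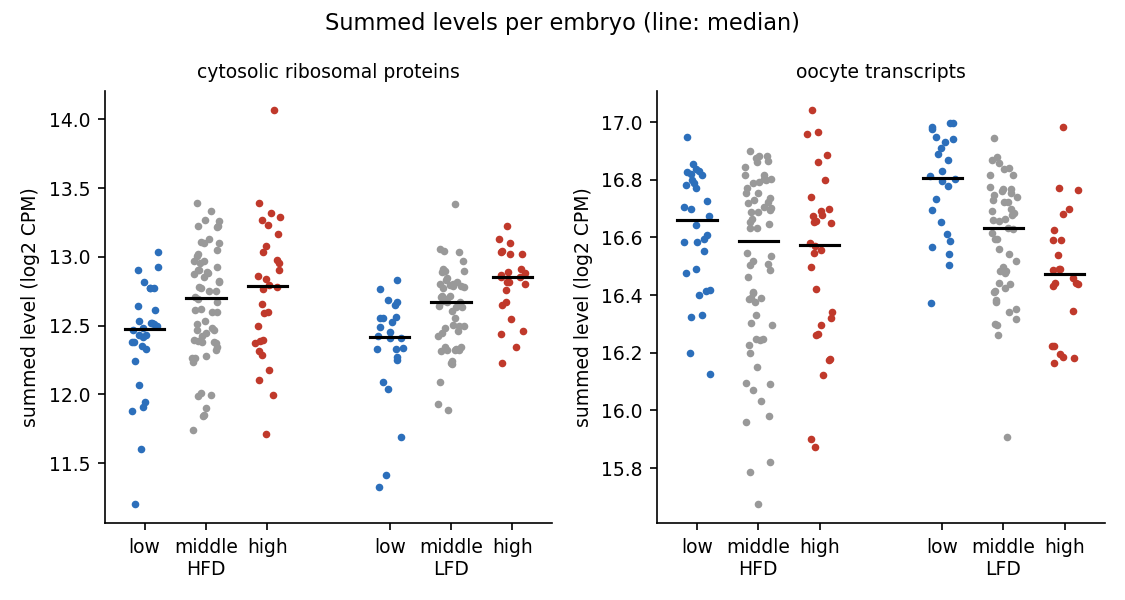
Points are the summed levels (log2 CPM) of the cytosolic ribosomal protein genes and of the oocyte transcripts in each embryo of the series, by diet and by mt-mRNA group, with a line at the median. The medians of the ribosomal protein genes step up and those of the oocyte transcripts step down from low over middle to high, with wide overlap.

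Genes that make ribosomes moved less. Of 37 ribosome biogenesis genes 14 were higher and 0 lower (median log2 fold change 0.20). Taf1d, a subunit of the RNA polymerase I selectivity factor, had medians of 209.7 CPM in high and 128.9 in low embryos (log2 fold change 0.52 ± 0.11, edgeR adjusted p = 0.000274). Polr1d, a subunit shared by RNA polymerases I and III, had medians of 136.1 and 99.4 CPM. Without the embryos of few detected genes 8 of the 37 were called, without those over 10% mt-mRNA also 8, and with the block of embryo numbers 3.

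The nuclear partners of the mt-mRNAs rose in part. Of 37 nuclear complex I subunits 10 were higher and 0 lower, with a median log2 fold change of 0.27. Ndufa2, an accessory subunit of complex I, had 13.6, 41.5 and 159.2 CPM in high and 6.94, 25.4 and 43.1 in low embryos (log2 fold change 0.80 ± 0.11, edgeR adjusted p = 3.67e-07). Among the 43 nuclear genes of complexes II to V and cytochrome c, 16 were higher and 1, Atp5b, was lower at -0.19. Cycs, which encodes the electron carrier cytochrome c, had medians of 77.8 and 56.3 CPM (log2 fold change 0.68 ± 0.12, edgeR adjusted p = 2.46e-05). Atp5g1, a subunit of the c ring of the ATP synthase, had medians of 229 and 150 CPM, and Cox7c, a small subunit of cytochrome c oxidase, was higher by 0.86. The catalytic beta subunit Atp5b thus went the other way from the small subunits named here. Without the 11 embryos of few detected genes in the comparison, 9 of each of the 2 groups were higher, and with the block 4 and 3. Taken by diet, the median of the complex I list was 0.41 in HFD and 0.15 in LFD embryos. For complexes II to V it was 0.34 and 0.24, with 4 higher and 0 lower genes in HFD and 5 higher and 2 lower in LFD embryos. The summed level of complexes II to V lay above the low median of the same diet in 22 of 30 high HFD and 12 of 24 high LFD embryos.

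By contrast, the genes that copy, transcribe and process mitochondrial nucleic acids stayed near the background. Of 52 tested, Tfb2m and Grsf1 were higher and Gfm1 was lower, and the median was -0.04. Tfb2m, the factor that opens mitochondrial promoters, had medians of 130.5 CPM in high and 101.97 in low embryos (log2 fold change 0.30 ± 0.08, edgeR adjusted p = 0.00584). Gfm1, a mitochondrial elongation factor, had 33.4 and 47.98 CPM (log2 fold change -0.61 ± 0.15, edgeR adjusted p = 0.00282). Of 17 mitochondrial aminoacyl-tRNA synthetases only Gars was called (log2 fold change -0.39). Mitochondrial ribosomal proteins had 12 higher and 1 lower of 75 (median 0.17). Between the quartiles of their exon lengths 8.11% of 37 members were higher, and 8.22% of the other genes of that length were. The mitochondrial import list had 5 higher and 1 lower of 36, with Tomm22, a receptor of the outer membrane, at 0.64 ± 0.14 (edgeR adjusted p = 0.000679). These were 13.9% and 2.78% of the import list, against 7.27% and 6.18% of all genes.

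Of 31 genes of mitochondrial turnover and shape 24 were not called, and the median log2 fold change was -0.02. The 5 higher genes were 16.1% of the list, against 7.27% of all genes, and the 2 lower genes 6.45%, near the 6.18% of all genes. Of those called 5 were higher, among them Gabarap, Gabarapl2 and Map1lc3b, ubiquitin-like proteins of the autophagosome, and Fis1, and 2 were lower, the fission GTPase Dnm1l and the fusion GTPase Opa1. Gabarap had medians of 53.8 CPM in high and 26.6 in low embryos (log2 fold change 0.75 ± 0.13, edgeR adjusted p = 1.55e-05). Dnm1l had 125.5, 243 and 405 CPM in high and 176.8, 322 and 545 in low embryos (log2 fold change -0.42 ± 0.07, edgeR adjusted p = 2.16e-05), with 48 of 54 high embryos below the low median.

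Antioxidant enzymes included the single largest change among the metabolic lists. Gpx1, the cytosolic glutathione peroxidase (chromosome 9, 108338903 to 108340343), had 26.8, 115.7 and 586 CPM in high and 7.85, 60.9 and 182.7 in low embryos. The log2 fold change of Gpx1 was 1.18 ± 0.16 (edgeR adjusted p = 1.51e-07), with 1.11 for HFD and 1.29 for LFD embryos taken alone. Gpx4, which reduces lipid peroxides, was higher by 0.69 ± 0.16 (edgeR adjusted p = 0.000855). Of the 25 enzymes tested, Sod2 and Prdx5 were also higher, and Prdx1 and Txnrd1 were lower. In the stress and p53 list 2 of 29 (6.9%) were higher and 1 (3.45%) lower, both under the shares of all genes. Cdkn1a, the cell cycle inhibitor p21, rose by 0.79 ± 0.15 (edgeR adjusted p = 8.78e-05). Its medians were 84.1 CPM in low and 135.2 in high embryos. Bcl2l11 rose by 0.46, and the mitochondrial protease gene Lonp1 fell by 0.54.

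Glycolysis, pyruvate use and the citric acid cycle had 2 higher and 6 lower genes of 43 (median -0.06). Fh1, the fumarase, had medians of 9.89 CPM in high and 15.7 in low embryos (log2 fold change -0.77 ± 0.17, edgeR adjusted p = 0.000547), and Cs, Dlst and Dld of the same cycle were lower too. Mpc1, a subunit of the mitochondrial pyruvate carrier, was higher by 0.43 ± 0.10 (edgeR adjusted p = 0.000707). Of 26 fatty acid oxidation and lipid storage genes 2 were higher, Slc25a20 and Eci1, and 1, Acsl1, was lower. At 7.69% and 3.85% of the list, these counts were near or under the shares of all genes.

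Oocyte transcripts were the main list on the lower side. Of 63 tested, 22 (34.9%) were lower and 6 higher, with a median log2 fold change of -0.18. Bmp15, an oocyte growth factor of the TGF-beta family (chromosome X, 6314107 to 6320721), had 301, 1148 and 3369 CPM in high and 774, 2201 and 4920 in low embryos. The log2 fold change of Bmp15 was -0.83 ± 0.13 (edgeR adjusted p = 5.98e-06), and 50 of 54 high embryos lay below the low median. Of the Nlrp genes, beside Nlrp14, the lower ones were Nlrp4a, Nlrp4b, Nlrp4c, Nlrp4f, Nlrp5, Nlrp9a and Nlrp9b, with Nlrp5 (MATER, a part of the subcortical maternal complex) at -0.65. Its partners Ooep and Tle6 were at -0.55 and -0.35 on the log2 scale. Not every stored transcript fell: Omt2a and Omt2b were higher by 0.56 and 0.58, and Zp3, Zar1l, Npm3 and Fbxw16 were also higher. Summed over the list, the oocyte level had a median of 16.5 log2 CPM in high and 16.7 in low embryos, and 1 of 24 high LFD embryos lay above the median of the low LFD embryos. In HFD embryos this was 11 of 30.

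Among 40 factors of maternal mRNA decay 5 were higher and 8 lower. These were 12.5% and 20% of the list, against 7.27% and 6.18% of all genes. Edc4, a scaffold of the decapping complex, had medians of 71.6 CPM in high and 110 in low embryos (log2 fold change -0.81 ± 0.14, edgeR adjusted p = 1.24e-05). Of the deadenylases and the subunits of their complexes, Pan2, Parn and Cnot3 were lower, at -0.54, -0.65 and -0.45. Pan3, the partner of Pan2, was higher at 0.61. The general poly(A)-binding protein gene Pabpc1 was higher by 0.61, opposite to its oocyte relative Pabpc1l.

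Genome activation transcripts of the 2-cell stage had 3 higher and 6 lower of 43, with a median of -0.03. The 2 named by the rule were Pramef25, at 100 CPM (median) in high and 162.5 in low embryos (log2 fold change -0.73 ± 0.17, edgeR adjusted p = 0.00119), and BC080695, at -0.80. The log2 ratio of summed genome activation to summed oocyte transcripts was higher in high embryos, by 0.23 ± 0.06 (SE, 54 against 54 embryos, permutation test within diet, adjusted p = 0.00200 over 5 measures). The genome activation level itself had medians of 12.6 log2 CPM in high and 12.5 in low embryos. By diet these medians were 12.63 in high and 12.54 in low HFD embryos, but 12.44 and 12.56 in LFD embryos. In LFD embryos the genome activation level was thus not higher in the high group, while the oocyte level had medians of 16.5 and 16.8. Taken by diet, high embryos exceeded low ones in the log2 ratio by 0.19 (HFD) and by 0.28 (LFD).

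Cell cycle regulators had 3 higher (6.52%) and 7 lower (15.2%) genes of 46, against 7.27% and 6.18% of all genes. Mcm2, a subunit of the replicative helicase, had medians of 224.7 CPM in high and 310 in low embryos (log2 fold change -0.59 ± 0.10, edgeR adjusted p = 2.40e-05), and Mcm6 of the same helicase was lower as well. Among 18 histone genes and variants the H2A.Z genes H2az1 and H2az2 and H2aj were higher (16.7% of the list) and none was lower, with H2az1 at 748 and 528 CPM. Proteasome subunits had 5 higher and 2 lower genes of 32, and translation factors 6 higher and 4 lower of 46. The lower genes were 6.25% and 8.70% of these lists, against 6.18% of all genes. Their members of smallest p were the regulatory subunits Psmd2 at -0.49 and Psmd8 at 0.40, and the translation repressor Eif4enif1 at -0.40 and Eif5 at 0.36 on the log2 scale.

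**Figure D5:**
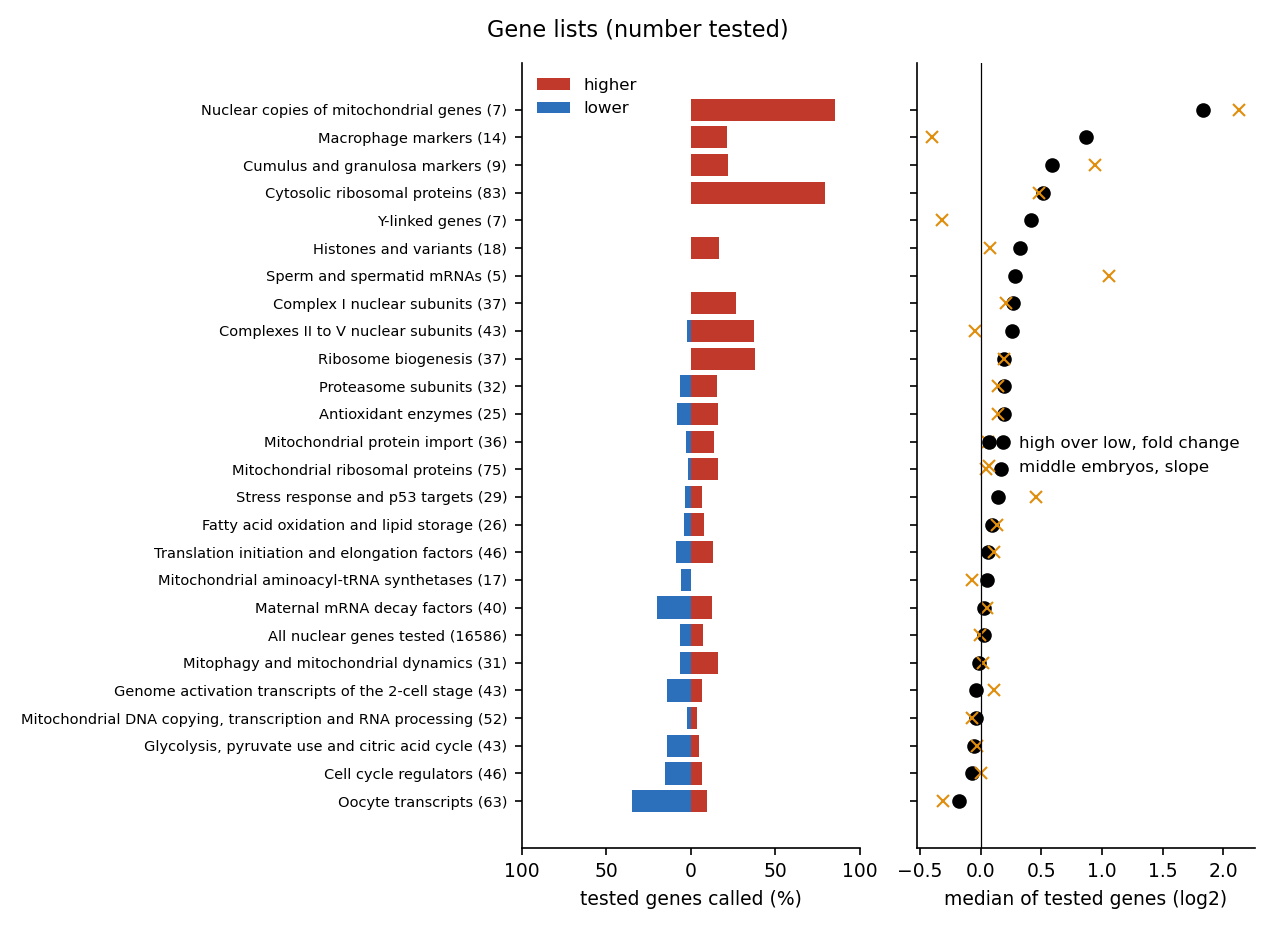
For each list, with the number of genes tested in brackets, bars show the percent of tested genes called higher or lower in high embryos (left), and dots and crosses show the median log2 fold change between the groups and the median slope in the middle embryos (right). Cytosolic ribosomal proteins reach 79.5% higher and oocyte transcripts 34.9% lower, against 7.27% and 6.18% of all genes.

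Nuclear copies of mitochondrial genes form a list of their own, since reads of mitochondrial transcripts may be assigned to them. Of 7 tested, 6 were higher, with log2 fold changes from 1.46 for Gm13340 to 2.29 for Gm28437, and 5 of these 6 lie side by side on chromosome 1. The transcript of Gm10925 (chromosome 1, 24613974 to 24614651) shares all of its 31-base words with mitochondrial transcripts of the reference genome. How far it shares them with the Staudach mitochondrial sequence of these embryos was not looked at. Gm10925 had 1.88, 5.17 and 891 CPM in high and 0.372, 2.25 and 134.1 in low embryos. The highest value of Gm10925 was in HFD embryo 78, and without it the log2 ratio of the means fell from 1.85 to 0.70, while without the highest low embryo it was 2.47. Leaving out the same embryo took this ratio from 1.83 to 0.46 for Gm28437, from 1.76 to 0.80 for Gm28661 and from 1.47 to 0.88 for Gm28439. For Gm29216 and Gm13340 it went from 1.58 to 1.10 and from 1.38 to 1.08. The 1 listed gene that was not called, Gm7792 (0.09 ± 0.23), shares none of these words. These 6 genes share sequence with mitochondrial transcripts of the reference genome and are given as a description. Summed over the list, the copies had medians of 4.18 log2 CPM in low, 4.68 in middle and 5.02 in high embryos. Single embryos departed from this order. HFD embryo 28, with the highest mt-mRNA share (20.02%), had 6.06 log2 CPM, and HFD embryo 78, with a share of 6.55%, had 11.1. The highest middle embryo had 10.2 and the highest low embryo 8.09. The source of these reads was not tested.

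Markers of the cumulus cells that surround the oocyte were looked at in the same way. Of 9 cumulus and granulosa markers tested Tnfaip6 and Kctd14 were higher and none was lower, with a median log2 fold change of 0.59 over the list. With the cumulus level as a covariate the ribosomal protein list had 68 higher genes and the oocyte list 23 lower. Tnfaip6 had a median of 1.76 CPM in low and 7.16 in high embryos, and Ptx3 had no count in any of these embryos. The summed cumulus level differed by 0.16 ± 0.13 on the log2 scale (permutation test, adjusted p = 0.259) and the summed macrophage level by 0.38 ± 0.24 (permutation test, adjusted p = 0.222). Of 5 sperm transcripts and 7 Y-linked genes none was called, and the summed Y-linked level was higher by 1.04 ± 0.54 (permutation test, adjusted p = 0.144).

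In the middle embryos the slope of each gene on the log2 mt-mRNA share was fitted, in a range of 3.98% to 6.12% in HFD and 3.23% to 4.77% in LFD embryos. No gene was called there by edgeR or by limma-voom, with 1316 and 1999 at an unadjusted p under 0.05. Directions were compared next: of 2231 genes called between the groups 92.1% had a slope of the same sign in the middle embryos, against 68.9% of all 16586 genes. This was 1086 of 1206 higher and 968 of 1025 lower genes. The median slope of the ribosomal protein genes was 0.48, and that of the oocyte transcripts -0.31. Gpx1 had a slope of 1.55, Spry2 of 1.29 and Pabpc1l of -1.87. The list of complexes II to V had a median slope of -0.05, where the groups had differed by a median of 0.26.

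The diets were also tested apart, which leaves no embryo in common. In HFD embryos 338 genes were called (2.39% of those tested) and in LFD embryos 1202 (8.54%). Of 336 genes called in HFD and tested in LFD embryos 94.9% had the same sign there and 41.1% were called. In the other direction, of 1198 genes called in LFD embryos 92.3% had the same sign in HFD embryos and 11.5% were called. Of all 13760 genes tested in both diets 69.4% had the same sign and 8.71% were called in LFD embryos. Of the ribosomal protein genes 14 of 82 were higher in HFD and 52 of 82 in LFD embryos, with medians of 0.49 and 0.58. Of the oocyte transcripts 5 of 62 were lower in HFD and 17 in LFD embryos. No gene had a high-to-low difference that itself differed between the diets by edgeR (0 called, 919 at an unadjusted p under 0.05) or by limma-voom (0 called, 2055).

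The number of nuclear genes expected in an embryo at a fixed depth of 1713587 counts was the 1 measure whose difference went in opposite directions. In HFD embryos it was 11093, 16881 and 18458 genes in high and 14743, 17839 and 18873 in low embryos, a mean difference of -983 ± 370. In LFD embryos it was 14098, 17704 and 18814 in high and 10777, 17050 and 18604 in low embryos, a mean difference of 731 ± 409. Over both diets the difference was -221 ± 274 (SE, permutation test within diet, adjusted p = 0.447), and the difference between the diets was tested on its own (permutation test, adjusted p = 0.00750). Embryos in the lowest 10% of this measure numbered 5 high and 1 low in HFD and 2 high and 3 low in LFD. With this gene number as a covariate 2379 nuclear genes were called and without those embryos 2219.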

How the data were processed

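The authors deposited raw counts per gene for 221 single embryos. Per the study's methods and the file headers, adaptors were removed with Trim Galore 0.6.6, paired reads were aligned with STAR 2.7.10a to GRCm38 carrying the Staudach mitochondrial sequence, and featureCounts 2.0.3 counted reads over exons of Ensembl 102 genes with strand setting 2, each read of a pair by itself. Counts without molecular identifiers are not independent molecules. Embryos were ranked within diet by mt-mRNA over nuclear counts, and the top and bottom 25% were compared. Nuclear genes were tested with edgeR 4.0.16 (quasi-likelihood, TMM on nuclear genes, filterByExpr, diet as covariate) in R 4.3.3, with Benjamini-Hochberg adjustment over all genes tested. limma 3.58.1 and DESeq2 1.42.0 were alternatives. CPM values are counts per 1000000 nuclear counts. Per-embryo measures (log2 of summed CPM with 0.5 added, or genes at a fixed depth) were compared by 2-sided permutation tests, labels permuted within diet (100000 permutations). The scripts were tested on simulated data.

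The members, the 25 gene lists and the tests were chosen with earlier results of these data known. Genes named are the 13 mt-mRNAs, the 10 largest and 10 smallest fold changes among genes of at least 3 log2 CPM called by edgeR and limma-voom, the 2 members of smallest p of each list and every tested nuclear copy. Other called list members were named after their values were seen. Coordinates are those of the count table (GRCm38).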

Additional observations from a re-analysis of the deposited data

Results flagged for a closer look

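The difference between high and low embryos in the number of nuclear genes expected at a fixed depth was not the same in the diets. It was negative in HFD embryos (-983 ± 370 genes) and positive in LFD embryos (731 ± 409), so that the HFD difference minus the LFD difference was -1714 genes (permutation of diet within the high and the low embryos after taking off each diet's mean, p = 0.00150, adjusted p = 0.00750 over 5 measures). For the other 4 measures the adjusted p of this comparison lay between 0.580 and 0.669. The cause was not tested.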

How the results depend on the processing

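Between high and low embryos 2231 nuclear genes were called. The count was 7661 of 42435 genes with no filter on low counts, 1466 for the top and bottom 10%, 1464 with the nuclear total as a covariate, 1333 (870 higher, 463 lower) with the oocyte transcript level as a covariate, 338 in HFD and 1202 in LFD embryos alone, and 5162 for the slope over all embryos. A replicate block of 10 consecutive embryo numbers within each diet gave 789 (355 higher, 434 lower) between the groups and 10 in the middle embryos, where 0 were called without it. A replicate block of the 4 runs of consecutive samples that each diet forms in the sample table, which no label names as a date or male, gave 1815 (995 higher, 820 lower) and 0, with 68 of 83 ribosomal protein genes higher and 14 of 63 oocyte transcripts lower. The numbers pair no animals. Under the other alternatives the count stayed within 1.5 times. For the difference between diets, 0 genes were called, and 19 by slopes over all embryos. DESeq2 size factors gave 1477 higher and 868 lower genes.

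The genes at a fixed depth, -221 over both diets, differed by -983 in HFD embryos alone (adjusted p = 0.0310), by 731 in LFD embryos alone (adjusted p = 0.192) and by 64.4 with equal weight for the 13 genes. The ratio of genome activation to oocyte transcripts differed by 0.19 in HFD embryos alone (permutation test, adjusted p = 0.0837). Of the 66 named nuclear genes that were called, 0 changed direction under any alternative, 20 stayed called under all that tested them, and 25 were no longer called with the block of numbers, against 4 with the block of runs. The cause of these changes was not tested. The block of runs, the covariates for the cumulus and oocyte levels, and the analyses without embryos over 10% mt-mRNA or high in macrophage markers or nuclear copies, were chosen after seeing the data. Genes near the filter limit and markers with a median of 0 were limited by depth.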
